A study of Monodelphis domestica with 7 samples.

Results

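The genes described here are 8 genes of red blood cells, of heme and of haptoglobin in the spinal cord of the grey short-tailed opossum, Monodelphis domestica: ALAS2, AHSP, GATA1, HBZ, CA1, BLVRB, a beta-globin gene named HBB-like and a haptoglobin gene named HPR-like. They were taken by Ensembl gene identifier, and all 8 were found among the 21314 genes of the count table. The study itself had listed these genes in its table for the older injured cords, made on these libraries, and CA1 in that for the younger cords as well, so these comparisons are given below as a description and are not independent evidence of their direction. The 8 genes were chosen with earlier results of these data known, and none was then left out because of its values.

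RNA was sequenced from the part of the cord rostral to a complete transection at thoracic level 10 (T10), to compare the response to injury at an age when axons grow across the lesion with that at an age when they do not. There were 7 libraries in 4 groups, each library a pool of 2 animals by the study's sequencing methods. The animal totals that the study gives for its transcriptome work are larger than such pools would hold, so the number of animals per library is uncertain. P7+24h injured pups were transected at postnatal day 7 and collected 24 hours later (2 libraries), and P28+24h injured pups were transected at day 28 and collected 24 hours later (2 libraries). P8 controls (2 libraries) and the P29 control (1 library) were uninjured pups of the same ages. Pups of both sexes were used. Controls for the younger age came from separate litters, and those for the older age were anaesthetised littermates in most litters, so that a litter difference and injury cannot be told apart at P7. The replicate number of a library is the number of its sequencing run, each run having been made from separately collected animals. The P29 control is a library of run 1, and none of run 2 was analysed here. Total counts ranged from 3332232 to 6256074 per library. Of the marker genes that had an identifier, 5 of 8 for spinal cord glia summed to between 384 and 1328 CPM (counts scaled to 1000000 per library, after correction by trimmed mean of M values) in the 4 libraries at day 8 and to between 50160 and 91554 CPM in the 3 libraries at day 29. Neuronal markers had no identifier in the sources used here, and the tissue label was therefore checked against glia alone.

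In developing red cells the transcription factor GATA1 switches on the genes for globin and for heme synthesis. ALAS2 makes the first compound of the heme pathway, globin chains take up the heme, and AHSP holds free alpha-globin until it finds its partner chain. When red cells break down, haptoglobin binds the released haemoglobin, and heme is degraded to biliverdin and then bilirubin, a step that biliverdin reductases carry out. In whole tissue, fewer erythroid cells and less erythroid RNA per cell cannot be told apart.

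The 8 genes differed between the sequencing runs in each of the 3 groups that have a library in both. All were higher in run 1, and from run 1 to run 2 the 7 red cell genes (all but HPR-like) changed by between -3.03 and -1.62 on the log2 scale. For these 7 the gap between runs was wider than that between injured and control cords at either age. Within run 1 all were higher in the P28+24h injured cord than in the P29 control, from 1.62 times for ALAS2 to 93.4 times for HPR-like. With all libraries in the model, none passed the test in the P7+24h injured cords. Once the run was included in the model, 5 of the 8 were called higher after injury at P28, against 0.584% of all genes tested. When it was not, none was, nor was any other gene (0%). Relative to the amount of beta-globin RNA, 2 of the other 7 genes, HBZ and HPR-like, were highest in the P28+24h injured cords of both runs. The share of all genes for which this held was not computed.

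GATA1 (ENSMODG00000010099) was measured at 29.0 CPM (run 1) and 3.79 CPM (run 2) in the younger controls, and at 25.2 and 4.79 CPM in cords injured at P7. It was at 12.6 CPM in the P29 control and at 49.8 and 8.59 CPM in the P28+24h injured cords. All 4 libraries of run 1 lay above all 3 of run 2, and the control of the older age lay between its 2 injured libraries.

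ALAS2 (ENSMODG00000005320), the erythroid form of the first enzyme of heme synthesis, stood at 175 and 40.9 CPM in the younger controls and at 117 and 40.5 CPM after injury at P7. It was at 150 CPM in the P29 control and at 243 and 102 CPM in the P28+24h injured cords. The injured and control libraries of run 2 at the younger age were within 1.01 times of each other, whereas those of the 2 runs differed at least 2.38 times in each of the 3 groups that have both.

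HBZ (ENSMODG00000016631) encodes zeta-globin, the alpha-like chain of embryonic haemoglobin. Its levels were 37.9 and 2.31 CPM in the P8 controls, 15.5 and 2.09 CPM in the P7+24h injured cords, 23.9 CPM in the P29 control and 118 and 19.0 CPM in the P28+24h injured cords. This gene had the widest gap between runs, 16.4 times in the P8 controls, and its run 2 library of the older injured cords was above the run 1 library of the younger ones.

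HBB-like (ENSMODG00000011306) took between 0.244% and 1.92% of all counts in a library. It was at 14587 and 2326 CPM in the P8 controls, 9406 and 2281 CPM in the P7+24h injured cords, 10387 CPM in the P29 control and 22631 and 5169 CPM in the P28+24h injured cords. Reads of near-identical globin copies could have been split between genes or left out in counting, so the level of a single globin gene is uncertain.

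AHSP (ENSMODG00000001121), the alpha-globin chaperone, was at 69.8 and 12.2 CPM in the P8 controls, 57.8 and 8.67 CPM in the P7+24h injured cords, 42.0 CPM in the P29 control and 96.4 and 13.0 CPM in the P28+24h injured cords. CA1 (ENSMODG00000005833), a carbonic anhydrase abundant in red cells, was at 92.6 and 20.9 CPM, 47.3 and 14.7 CPM, 50.3 CPM, and 120 and 40.4 CPM in the same order. BLVRB (ENSMODG00000007707), a biliverdin reductase of red cells, was at 97.0 and 29.8 CPM, 95.3 and 36.8 CPM, 62.6 CPM, and 154 and 42.8 CPM. In these genes too every run 1 library was above every run 2 library.

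HPR-like (ENSMODG00000002494) was scarce and had another pattern. It was counted 10 times and 0 times in the P8 controls, 10 times and 0 times in the P7+24h injured cords and 1 time in the P29 control, but 76 and 49 times in the P28+24h injured cords. In CPM these counts were 2.48, 0, 2.63, 0, 0.287, 26.8 and 7.95. Both P28+24h injured libraries lay above the other 5, whichever run they came from, and this was the one gene of the 8 for which the P29 control did not lie between the 2 injured libraries of its age. A count of 0 allows up to 3 counts, which was 0.494 CPM in the P8 control and 0.449 CPM in the P7+24h injured cord of run 2, for counting error alone.

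**Figure D1:**
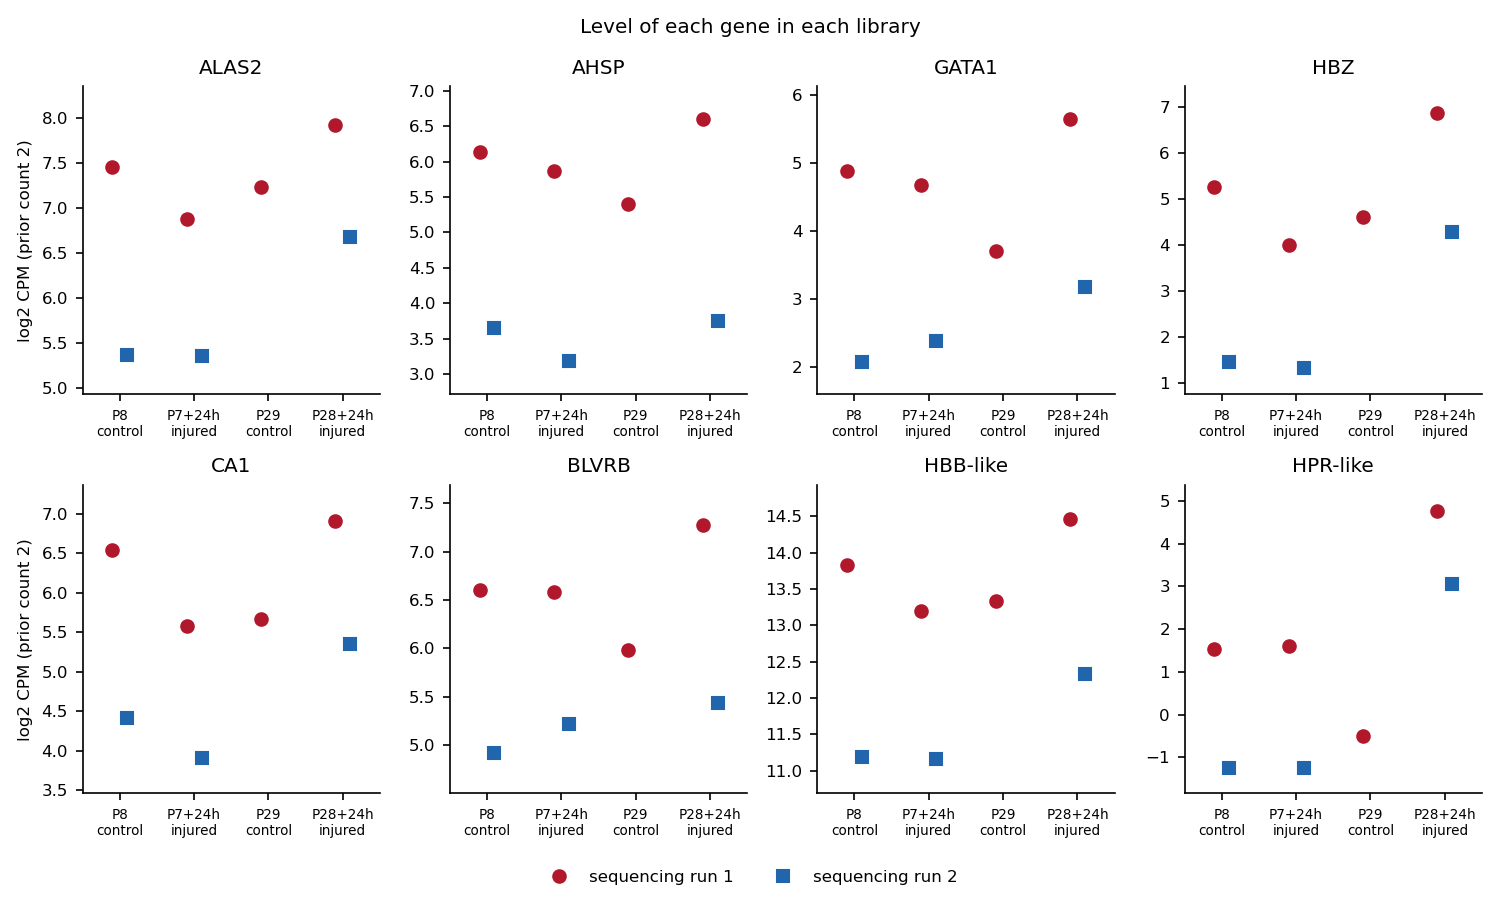
Level of each of the 8 genes in each library, as log2 CPM with a prior count of 2 on the vertical axis (the axis differs between panels), for the 4 groups on the horizontal axis. Red circles are libraries of run 1 and blue squares libraries of run 2. In 6 panels all circles lie above all squares, and in all 8 the highest point is the P28+24h injured cord of run 1.

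The first question was how far the sequencing run alone separated the libraries. With groups and run in 1 edgeR quasi-likelihood model, all 8 genes were called lower in run 2 (Benjamini-Hochberg adjusted p under 0.05 and at least 2-fold), against 7.08% of the 13534 genes tested. The likelihood ratio test in that model also called all 8, against 7.65%. The fall from run 1 to run 2 was largest for HBZ (log2 -3.03, SE 0.24), AHSP (-2.71, SE 0.16) and GATA1 (-2.60, SE 0.20), followed by HBB-like (-2.27, SE 0.19). It was smallest for CA1 (-1.80, SE 0.16), BLVRB (-1.64, SE 0.14) and ALAS2 (-1.62, SE 0.17), and for these 7 genes the adjusted p from edgeR ran from 5.19e-06 to 5.92e-05. HPR-like fell by 2.29 (SE 0.51, adjusted p = 0.00383 from edgeR). Among the 7 red cell genes the globins, the chaperone and the transcription factor had the wider gaps and the enzymes the narrower ones. AHSP and GATA1 differed from each other by less than their SEs, and so did BLVRB and ALAS2.

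The gap between runs was seen in each of the 3 groups with a library in both runs, the P29 control having 1 library. In the P8 controls the 7 red cell genes were from 3.25 times (BLVRB) to 16.4 times (HBZ) higher in run 1. In the P7+24h injured cords they were from 2.59 times (BLVRB) to 7.40 times (HBZ) higher, and in the P28+24h injured cords from 2.38 times (ALAS2) to 7.43 times (AHSP) higher. HPR-like was 3.38 times higher in run 1 in the P28+24h injured cords (95% counting interval 2.33 to 4.94). It was at least 5.01-fold higher among the P8 controls and at least 5.85-fold higher after injury at P7, against a floor of 3 counts in the run 2 library. For 6 of the 8 genes no library of run 2 reached any library of run 1, which held for 13.9% of all genes tested. The exceptions were HBZ and HPR-like, in which the P28+24h injured cord of run 2 overlapped run 1.

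At P28 the comparison asks which genes differ between the injured cord and its control 24 hours after transection. In the model with groups alone, since no run term is named in the study's methods, none of the 8 genes was called by edgeR, and none of all genes was (0% of 13534, with 130 genes higher at an unadjusted p under 0.05, and none by DESeq2). The log2 differences were positive for all 8, from 0.20 (SE 1.03) for ALAS2 to 5.77 (SE 2.85) for HPR-like, and no SE was below 1.03. Since the samples are paired by run, the model with run was set beside it. There, 5 of the 8 genes were called higher, against 0.584% of all genes. By the likelihood ratio test in the same model 7 of the 8 were called, against 2.61%, ALAS2 being left out at 1.85 times.

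The 5 called genes cover the transcription factor, a globin, both enzymes outside heme synthesis and the haptoglobin gene. HBZ was 5.60 times higher in the injured cords (log2 2.48, SE 0.35, edgeR adjusted p = 0.0229), and GATA1 was 4.01 times higher (log2 2.00, SE 0.31, edgeR adjusted p = 0.0268). CA1 was 2.58 times higher (log2 1.37, SE 0.25, edgeR adjusted p = 0.0388) and BLVRB 2.30 times higher (log2 1.20, SE 0.23, edgeR adjusted p = 0.0399). For HPR-like the fitted log2 difference was 6.67 (SE 1.08, edgeR adjusted p = 0.0298), a value that depends on the single count in the control.

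The 3 that did not pass in this model were AHSP (log2 1.13, SE 0.24, edgeR adjusted p = 0.0590), HBB-like (1.20, SE 0.30, edgeR adjusted p = 0.0912) and ALAS2 (0.89, SE 0.26, edgeR adjusted p = 0.134). The differences of AHSP and HBB-like were of the size of that of BLVRB. With scaling by library size alone, which moved the median of all genes by 0.03 from a value of 0, none of the 8 and no other gene was called in the model with run, with edgeR adjusted p from 0.123 to 0.134 for the 5 genes and all 8 differences still positive. For this comparison 10 fits with run were made, some of which left out 1 library, but never the P29 control. Over them the log2 difference ranged from 1.91 to 2.09 for GATA1 and from 2.24 to 3.21 for HBZ. It ranged from 1.19 to 1.63 for CA1 and from 6.35 to 11.37 for HPR-like. BLVRB fell under 2-fold (log2 0.98) without the P28+24h injured library of run 1.

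Within run 1, from which both a control and an injured library were at hand, the injured cord was higher for all 8 genes: 1.62 times for ALAS2, 2.18 times for HBB-like, 2.30 times for AHSP, 2.39 times for CA1, 2.46 times for BLVRB, 3.94 times for GATA1 and 4.93 times for HBZ. The median log2 change of the 8 was 1.27 and that of all genes tested -0.01, which describes genes already listed for this comparison. HPR-like was 93.4 times higher, from 76 counts against 1, with a 95% counting interval of 16.3 to 3737. For the injured library of run 2 no control of its own run was analysed here. Set against the run 1 control it was lower for the 7 red cell genes, from 1.25 times for CA1 to 3.23 times for AHSP, and 27.6 times higher for HPR-like (counting interval 4.74 to 1114). Leaving out the P28+24h injured library of run 1 from the model with groups alone therefore turned the sign for all 7 red cell genes. With run in the model, the 8 differences stayed positive when any single library but the P29 control was left out.

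**Figure D2:**
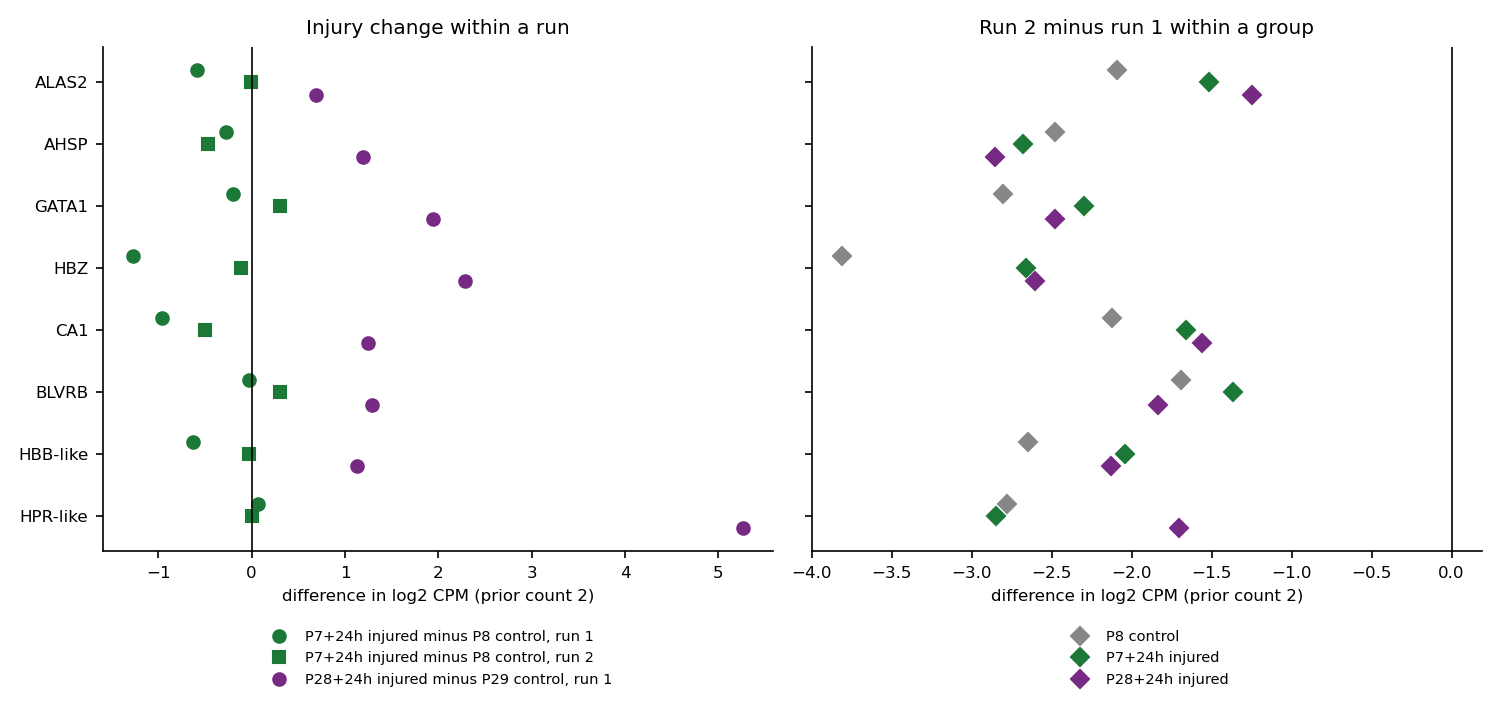
Differences in log2 CPM (prior count 2) between single libraries for the 8 genes, injured minus control within a run (left) and run 2 minus run 1 within a group (right). The P28+24h differences lie between 0.69 and 5.26, the P7+24h differences between -1.27 and 0.31, and all differences between runs between -3.81 and -1.25.

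At P7 the same comparison showed no gene of the 8 called by edgeR, without a run term (0% of all genes called, 69 at an unadjusted p under 0.05) or with it (0.0148%, 313 at an unadjusted p under 0.05). The model with run gave its lowest values to HBZ (log2 -1.01, SE 0.32, edgeR adjusted p = 1.00) and CA1 (-0.77, SE 0.19, edgeR adjusted p = 0.793), and these were also the 2 with an unadjusted p under 0.01. The other 6 genes lay between -0.36 for AHSP and 0.14 for BLVRB. In single runs, HBZ was 2.44 times lower in the injured cord of run 1 but 1.10 times lower in that of run 2, and CA1 was 1.96 and 1.43 times lower. The study reported only increases among the genes it called changed at P7, and its text does not name CA1. GATA1 and BLVRB were lower in the injured cord of run 1 and higher in that of run 2, by at most 1.26 times. HPR-like was counted 10 times in the injured and 10 times in the control cord of run 1, a ratio of 1.06 with a counting interval of 0.396 to 2.84. In fits with run that left out 1 library, HBZ stood at log2 -1.09 and -1.10 without a P28+24h injured library. It stood at -1.34 without the P8 control of run 2 and at -0.02 without that of run 1. HBZ was called lower in 3 of the 10 fits with run, those at -1.09, -1.10 and -1.34. Its missing call at P7 therefore depended on the libraries used.

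The difference between the 2 responses was tested directly, as the change at P28 minus that at P7. It was positive for all 8 genes, against 53% of all genes tested without a run term and 48.4% with it. The study had listed the 8 genes for the older injured cords, so this sign is not independent evidence. Without a run term none of the 8 nor of all genes was called (59 genes at an unadjusted p under 0.05). With run in the model HBZ was called, against 0.0369% of all genes, with a difference of 3.50 on the log2 scale (SE 0.47, edgeR adjusted p = 0.0369). CA1 followed at 2.14 (SE 0.31, edgeR adjusted p = 0.0529) and GATA1 at 2.03 (SE 0.39, edgeR adjusted p = 0.147). HPR-like had the largest difference and the largest error, 6.64 (SE 1.66, edgeR adjusted p = 0.213). The call for HBZ was lost without the P8 control of run 1, where the difference was 2.35 (edgeR adjusted p = 0.120), and with library size scaling (3.54, edgeR adjusted p = 0.373). In the fits that left out another library, 3 to 7 of the 8 genes were called, HBZ each time, while the number called over all genes was 5 with all libraries and 36 to 720 in those fits.

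The level before injury was compared between the ages in uninjured cords. Between the P29 control and the P8 controls, none of the 8 genes was called without a run term, against 1.79% of all genes. With run in the model, GATA1 was called lower at day 29 (log2 -1.09, SE 0.31, edgeR adjusted p = 0.0231), against 8.89% of all genes called lower. With scaling by library size alone 1764 genes were called lower and 1176 higher, in place of 1203 and 1690. AHSP (-0.82, edgeR adjusted p = 0.0249) and CA1 (-0.73, edgeR adjusted p = 0.0439) passed the p threshold but not the 2-fold one. In run 1, all 8 genes were lower in the P29 control than in the P8 control, against 49.7% of all genes tested. Among the red cell genes the gap ran from 1.17 times for ALAS2 to 2.29 times for GATA1. The study had listed these genes from a comparison with this same P29 control. Low values in it, and the call for GATA1, are therefore not independent evidence of an age difference. The call for GATA1 was lost without the P8 control of run 1 (log2 -0.74, edgeR adjusted p = 0.437), which left no pair of controls within a run, and under DESeq2 (-1.09, DESeq2 adjusted p = 0.0894).

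Injured cords of both ages have a library in each run, so they were also compared directly, a comparison chosen after the data were seen. It joins the age difference and the difference in response. All 8 genes were higher in the P28+24h than in the P7+24h injured cord in both runs. Of all genes tested, 52% were higher in run 1 and 49.9% in run 2. The study had listed the 8 genes from these same P28+24h injured libraries, so their direction here is not independent evidence. HBZ was 7.59 times higher in run 1 and 9.06 times in run 2, CA1 was 2.54 and 2.76 times higher, ALAS2 2.08 and 2.52 times, and HBB-like 2.41 and 2.27 times. Smaller ratios were found for GATA1 (1.98 and 1.80 times), AHSP (1.67 and 1.50 times) and BLVRB (1.62 and 1.16 times). HPR-like was 10.2 times higher in run 1 and at least 17.7-fold higher in run 2.

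In the edgeR model with run, 5 of the 8 were called higher in the P28+24h injured cords, against 13.8% of all genes: HBZ (log2 3.06, SE 0.30), HPR-like (4.05, SE 0.61), CA1 (1.41, SE 0.19), HBB-like (1.22, SE 0.22) and ALAS2 (1.20, SE 0.20). Their edgeR adjusted p ran from 2.84e-05 for HBZ to 0.00157 for HBB-like. GATA1 (0.93, SE 0.23), AHSP (0.67, SE 0.19) and BLVRB (0.46, SE 0.17) passed the p threshold but were under 2-fold. With scaling by library size alone the genes called over the whole table were 1404 higher and 1655 lower, in place of 1873 and 1191. Without a run term none of the 8 was called, against 2.26% of all genes and the largest difference was 3.88 (SE 1.71) for HPR-like. Of the 5 calls with run, that of HBB-like was lost without either P7+24h injured library (edgeR adjusted p = 0.159 and 0.0719 without runs 1 and 2), and ALAS2 fell under 2-fold (log2 0.87) without the P28+24h injured library of run 2.

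**Figure D3:**
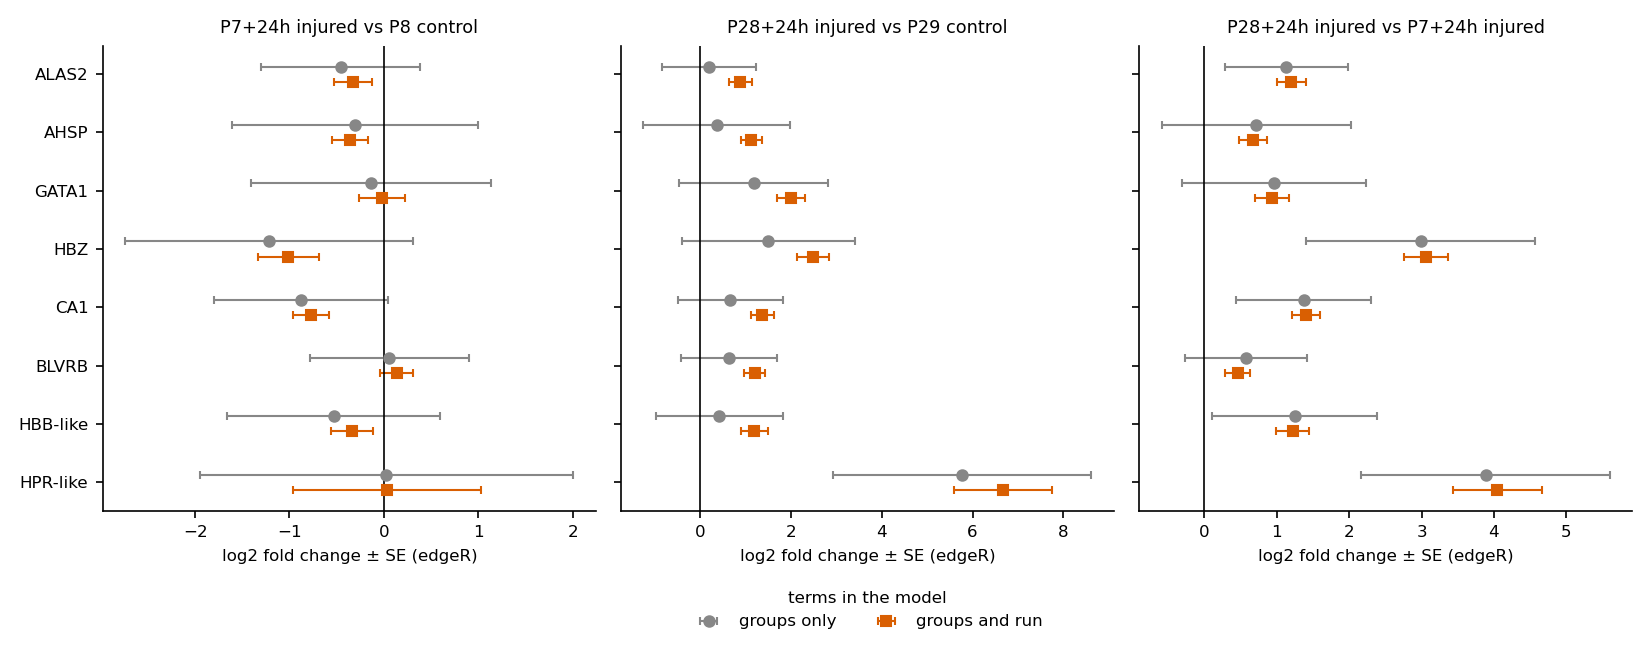
Log2 fold change of the 8 genes in 3 comparisons, with bars of ± 1 SE (derived from the F value of the test), from the edgeR model with groups alone (grey circles) and with groups and run (orange squares). The SEs shrink when run is included, from between 1.03 and 2.85 to between 0.23 and 1.08 in the P28+24h comparison, and all 8 values there are above 0.

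To see which genes moved beyond the amount of beta-globin RNA, each was expressed per 1000 HBB-like counts of the same library. This is a description without a test, and no share over all genes was computed. HBZ stood at 5.20 and 3.67 in the P28+24h injured cords of runs 1 and 2, above the P29 control (2.30), the P8 controls (2.60 and 0.992) and the cords injured at P7 (1.65 and 0.918). HPR-like stood at 1.19 and 1.54 in the P28+24h injured cords and at 0 to 0.279 in the other 5 libraries. In these 2 genes both older injured libraries were above all others. The same was found for the alpha-globin HBA, which is not among the 8, at 0.983 and 0.596 against 0 to 0.387 elsewhere.

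The other 5 genes showed no such separation. GATA1 ranged from 1.22 in the P29 control to 2.68 in the P7+24h injured cord of run 1, with 2.20 and 1.66 in the P28+24h injured cords between them. ALAS2, the heme synthesis enzyme, was between 10.7 and 14.4 in the 4 libraries of run 1 and between 17.6 and 19.8 in the 3 of run 2. AHSP ranged from 2.51 to 6.14, and CA1 was highest in the P8 control of run 2 and between 4.84 and 7.81 in the other libraries. BLVRB ranged from 6.03 to 16.1, its run 2 library being above its run 1 library in each of the 3 groups that have both.

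**Figure D4:**
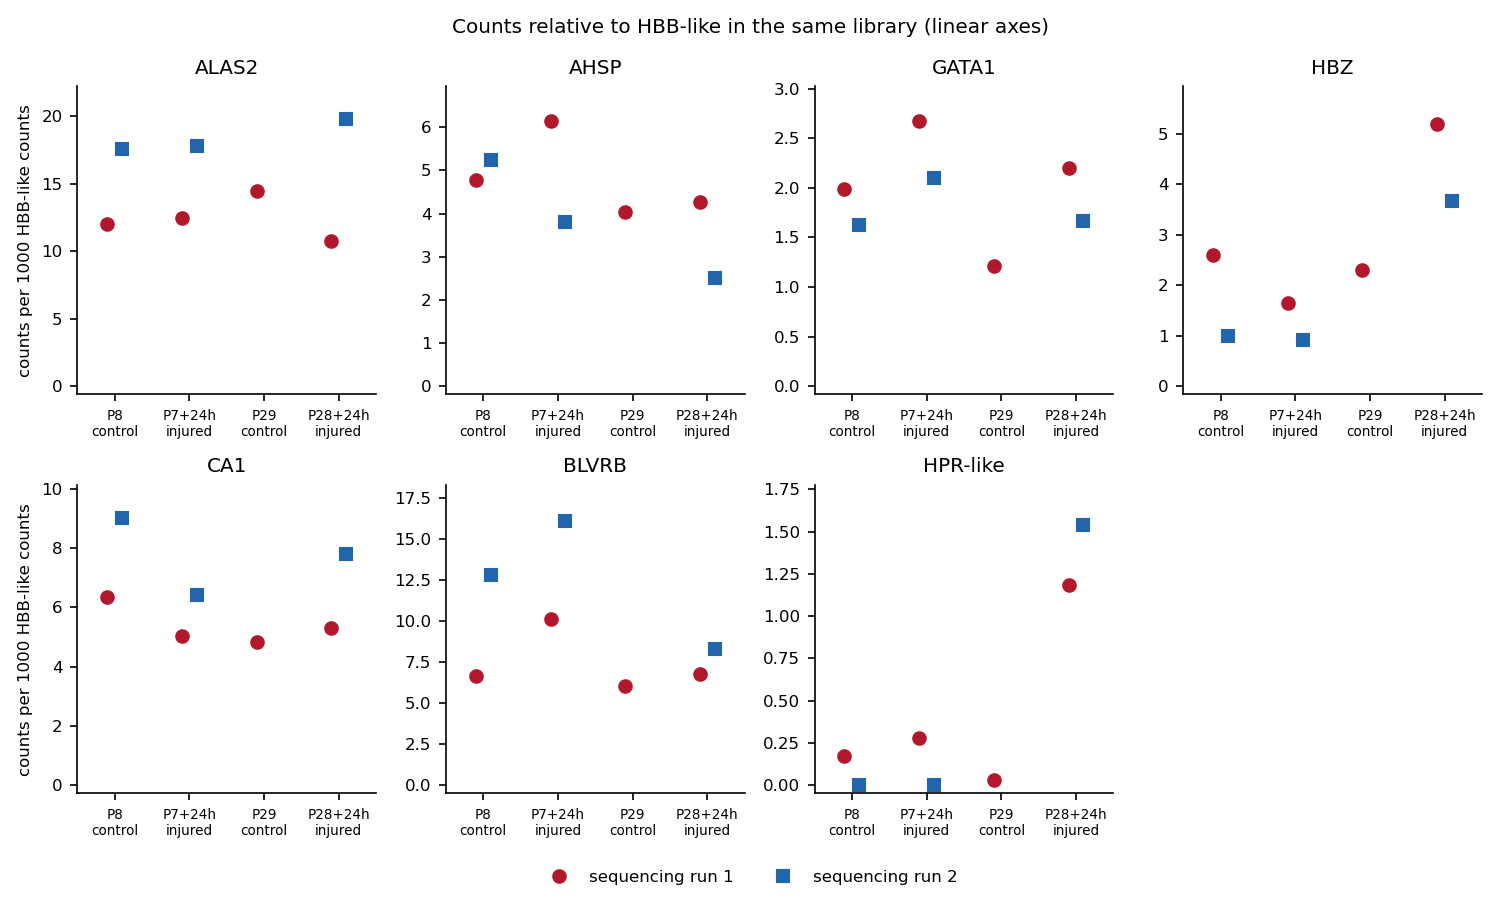
Counts of 7 genes per 1000 HBB-like counts of the same library, on linear vertical axes that differ between panels, for the 4 groups. Red circles are run 1 and blue squares run 2, and both P28+24h injured libraries lie above all other libraries for HBZ (5.20 and 3.67) and HPR-like (1.19 and 1.54) only among the 7.

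The genes whose log2 CPM followed most closely that of ALAS2 over the 7 libraries were ENSMODG00000025317 (Pearson r = 0.9948) and ENSMODG00000007433 (r = 0.9946). Those closest to HPR-like were ENSMODG00000008440 (r = 0.9751) and ENSMODG00000006722 (r = 0.9737). None of these has a symbol in the sources used here, and the libraries share 2 runs, which set much of the spread, so the values only describe likeness. ENSMODG00000006722 was counted between 1 and 10 times per library, and HPR-like was scarce too, so that value rests on few reads.

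Of 84 genes listed for globins, heme synthesis, heme breakdown and scavenging, erythroid transcription factors, red cell membrane and cytosol, and iron handling, 12 had an identifier, 8 of them the genes above, so no list was read as a set. The 4 others were an alpha-globin (HBA), transferrin receptor 2 (TFR2), peroxiredoxin 2 (PRDX2), an antioxidant enzyme abundant in red cells, and androglobin (ADGB). HBA (ENSMODG00000016635) was counted 21 and 1 times in the P8 controls, 11 and 0 times in the P7+24h injured cords, 14 times in the P29 control and 63 and 19 times in the P28+24h injured cords. It followed the members between runs (log2 -3.36, SE 0.45, called by edgeR with adjusted p = 0.000260) and did not pass at P28 in the model with run (2.64, SE 0.58, edgeR adjusted p = 0.0655). A second identifier paired with the HBA name was listed at 0 in all 7 libraries.

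TFR2 was lower in run 2 (log2 -3.30, SE 0.49, edgeR adjusted p = 0.000411) and lower in the P29 control than in the P8 controls (-2.62, SE 0.79, edgeR adjusted p = 0.0295). ADGB was lower in run 2 (-1.77, SE 0.39, edgeR adjusted p = 0.00360). PRDX2 differed between runs by less than 2-fold (-0.88, SE 0.16, edgeR adjusted p = 0.00111). None of the 4 was called after injury at either age, in either model.

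Markers of other blood and tissue cells moved with some of these results. From run 1 to run 2, in the edgeR model with run, 2 of the 5 neutrophil and monocyte markers were called lower and 1 higher. Of the 2 platelet and megakaryocyte markers 1 was called lower, and of the 4 skeletal muscle markers 2 lower and 1 higher. Of the 5 glia markers 3 were called higher. Of all genes tested, 7.08% were called lower and 11.3% higher. The 5 of 11 neutrophil and monocyte markers with an identifier summed to 41.7 and 56.9 CPM in the P28+24h injured cords of runs 1 and 2, against 7.47 CPM in the P29 control, 29.2 and 12.3 CPM in the P7+24h injured cords and 17.8 and 5.11 CPM in the P8 controls. The single markers differed. OLFM4 (17.7 and 16.9 CPM) and CSF1R (6.71 and 21.9 CPM) were highest in the P28+24h injured cords. CSF3R was at 2.12 and 7.46 CPM there and at 0.862 CPM in the P29 control. It was at 4.70 and 2.80 CPM in the P8 controls and at 4.46 and 3.59 CPM in the P7+24h injured cords. S100A8 and S100A9 were highest in the P7+24h injured cord of run 1 (8.67 and 12.9 CPM). The 2 of 7 platelet and megakaryocyte markers summed to 59.7 and 73.3 CPM in the P28+24h injured cords and to between 11.9 and 29.2 CPM in the other libraries. Most of the sum in the P28+24h injured cords was VWF (48.0 and 68.3 CPM). ITGA2B was at 11.7 and 5.03 CPM there, against 15.8 and 3.46 CPM in the P8 controls. It was at 12.3 and 2.84 CPM in the P7+24h injured cords and at 2.30 CPM in the P29 control. The 4 of 8 skeletal muscle markers summed to 137 and 36.3 CPM in the P28+24h injured cords and to at most 10.6 CPM elsewhere. Albumin, the 1 of 6 hepatocyte markers with an identifier, was listed at 0 in every library. The part of these cells in the levels of the 8 genes was not tested.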

How the data were processed

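Spinal cord RNA from 7 libraries was read as single ends of 100 bases. Per the labels and the study's methods, the authors aligned the reads with Bowtie2 and counted them per Ensembl gene with HTSeq, and the deposited values are raw read counts, one column per library. The submitters' processing notes name edgeR 2.6.12 for their own testing. Whether strand was used in counting is not given in the sources used here.

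Of 21314 genes, 13534 passed edgeR's filterByExpr (minimum count 10). Counts were scaled by trimmed mean of M values and tested with edgeR 4.0.16 (R 4.3.3) quasi-likelihood F tests over all 7 libraries with groups alone, and with the sequencing run as a block beside it. p-values were adjusted by Benjamini-Hochberg over all genes tested, and a gene was called where it changed at least 2-fold with an adjusted p below 0.05. The edgeR test gives no SE. Each SE printed here was derived as the absolute log2 fold change divided by the square root of the F value. The model with groups alone had 3 residual degrees of freedom and a common dispersion of 0.141, and the model with run had 2 and 0.0181. As the P29 control is 1 library, its spread was taken from the other groups. Levels are CPM, single-library differences are log2 CPM with a prior count of 2, and ratios of counts carry exact binomial 95% intervals, which cover counting error only. Run numbers pair the samples: the change from run 1 to run 2 correlated over genes between groups with r = 0.802, 0.699 and 0.737. Libraries are pools of separately collected animals. With groups alone, p-values measure the spread between the pools of the 2 runs, which includes the gap between runs. With run in the model they measure how far that gap differs between groups. Neither holds any spread of the P29 control.

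The alternatives were DESeq2 1.42.0, other scaling factors, no filter, the likelihood ratio and exact tests, and leaving out libraries. Gene symbols came from the identifiers the study pairs with them. The 8 genes and the lists were chosen with earlier results of these data known, and all 8 are named.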

Additional observations from a re-analysis of the deposited data

Results flagged for a closer look

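In the edgeR model with run, the response of HBZ, the embryonic alpha-like globin, was larger at P28 than at P7 by log2 3.50. This difference is given here because it was called in that model (quasi-likelihood test, adjusted p = 0.0369). It was not called without a run term (2.72, SE 2.45) or with run and library size scaling (3.54, edgeR adjusted p = 0.373). Leaving out the P8 control of run 1 lowered it to 2.35. The study had listed HBZ from these same libraries at P28, so its direction is not independent evidence. In single libraries HBZ changed by 2.28 at P28 in run 1 and by -1.27 and -0.12 at P7 in runs 1 and 2. The P28 change in run 2 was not computed, as no P29 control of that run was analysed here.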

How the results depend on the processing

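Without a run term none of the 8 genes was called in a comparison of groups, and with it the calls varied. A single P29 control analysed here, from 1 run, and few degrees of freedom limit what could be seen. The cause of each change below was not tested. All alternatives with the run that also change the scaling, the tool or the libraries, and the direct comparison of injured cords, were chosen after seeing the data. Over all 8 genes, comparisons and alternatives other than leaving out a library, 13 of 399 values changed sign and 33 changed side of the threshold, and of those with a library left out 51 and 42 of 488 did. The gap between runs held for all 8 genes under every alternative tried, with 2099 to 2738 genes called in all.

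Counts of genes called over the whole table are given next. Adding the replicate block (the run) to the fit took the P7 comparison from 0 to 2, the P28 comparison from 0 to 102, the comparison of controls from 242 to 2893, the difference between responses from 0 to 5 and the comparison of injured cords from 380 to 3064. With the replicate block and a likelihood ratio test these were 36, 493, 3242, 200 and 3274. Without the block, DESeq2 called 2 genes at P7, 862 between controls and 1019 between injured cords. Scaling by library size alone gave 138 between controls and 229 between injured cords, and edgeR's exact test on the compared groups gave 6 at P7, 1 at P28 and 1074 between controls. With the block, library size scaling gave 1 at P7, 0 at P28 and 0 for the difference between responses, DESeq2 gave 9 at P7 and 31 for that difference, and RLE factors gave 9 for it. Leaving out 1 library gave 0 to 139 between controls and 0 to 88 between injured cords without the block. With the block it gave 7 to 51 at P7, 300 to 960 at P28 and 24 to 720 for the difference between responses.

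Values of single genes that changed sign are given as log2 differences. Between controls, adding the replicate block turned ALAS2 to -0.01, AHSP to -0.82, HBZ to -0.44 and HBB-like to -0.31, with -0.01, -0.81, -0.41 and -0.31 by the likelihood ratio test. Library size scaling turned AHSP to -0.26 and HBZ to -0.04 there, and HPR-like to -0.01 at P7 without and with the block. DESeq2 with the block turned GATA1 to 0.01 at P7. Library size scaling moved the median of all genes between controls from -0.03 to -0.33 without the block and from -0.02 to -0.27 with it.

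Leaving out each library in turn without the block gave these ranges at P7: ALAS2 -1.41 to 0.94, AHSP -2.23 to 1.43, GATA1 -1.75 to 1.95, HBZ -3.23 to 1.88, CA1 -1.95 to 0.56, BLVRB -0.78 to 1.14, HBB-like -1.89 to 1.33 and HPR-like -5.47 to 5.49. At P28 they were ALAS2 -0.56 to 0.63, AHSP -1.70 to 1.14, GATA1 -0.56 to 1.91, HBZ -0.34 to 2.24, CA1 -0.33 to 1.19, BLVRB -0.56 to 1.24 and HBB-like -1.02 to 1.06. Between controls they were ALAS2 -0.23 to 1.87, AHSP -0.73 to 1.78, GATA1 -1.19 to 1.73, HBZ -0.67 to 3.35, CA1 -0.88 to 1.26, BLVRB -0.63 to 1.07, HBB-like -0.49 to 2.16 and HPR-like -2.99 to 3.60. For the difference between responses they were ALAS2 -0.74 to 1.61, AHSP -1.38 to 2.60, GATA1 -0.77 to 2.93, HBZ -0.37 to 4.73, BLVRB -0.60 to 1.42 and HBB-like -0.91 to 2.31. With the block the ranges that crossed 0 were, at P7, ALAS2 -0.65 to 0.06, GATA1 -0.17 to 0.29, BLVRB -0.06 to 0.34 and HPR-like -4.05 to 4.07, and, between controls, ALAS2 -0.23 to 0.49, HBZ -0.67 to 0.65, HBB-like -0.49 to 0.07 and HPR-like -3.01 to 1.50. In the other comparisons with the block no gene changed sign when a library was left out.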
